A study of Arabidopsis thaliana with 2 samples.

Results

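The 9 genes described here code for the main protein reserves of the Arabidopsis seed. The cruciferin family contributed *CRA1* (AT5G44120), *CRB* (AT1G03880), *CRC* (AT4G28520) and *CRD* (AT1G03890). The 2S albumin family contributed *AT2S1* (AT4G27140), *AT2S2* (AT4G27150), *AT2S3* (AT4G27160), *AT2S4* (AT4G27170) and *SESA5* (AT5G54740). They were taken by gene identifier, and they are 9 of the 733 genes in the deposited table. RNA sequencing was carried out on mature stems of *cep1* plants and of wild-type (WT) plants, with 1 library per genotype, to ask which transcripts change when *CEP1* is disrupted. *CEP1* codes for a papain-like cysteine endopeptidase of cells that undergo programmed death.

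The *cep1* line carries a homozygous T-DNA insertion in the third exon of *CEP1*, and the WT was Columbia-0, without the insertion. The labels give stems at 25 days after flowering for both genotypes, from plants grown at 20 °C with 16 h of light and 8 h of darkness, whereas the study's methods give another temperature. The methods also state that stems were collected by developmental stage, at the last stage, when flowering and elongation had stopped. The mutant reached that stage later than the WT. If stems were taken by stage, age cannot be told apart from genotype. If they were taken at the same age, as labelled, developmental stage cannot be told apart from genotype. How many plants entered each library is not given in the sources used here. With 1 library per genotype no difference has a replicate check, no p-value is given, and intervals cover the counting error of reads only.

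The libraries held 22077141 (*cep1*) and 20962056 (WT) reads on genes, as worked out from counts, lengths and FPKM. FPKM is the read count scaled to the length of the gene and the size of the library. *CEP1* itself was counted 1269 times in the WT and 15 times in *cep1*, a log2 ratio of -6.24 (exact 95% interval -7.08 to -5.51), in the direction the labels require. The table lists only genes that the authors marked as lower in *cep1*. All 733 (100%) were lower by 2-fold or more, so the presence of a gene in it is not a result about that gene, and genes outside it were not analysed here.

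Cruciferins are 12S globulins, which are made as precursors in the maturing embryo, cleaved into chains by vacuolar processing enzymes, and packed into protein storage vacuoles. 2S albumins are small, sulphur-rich proteins that are stored in the same vacuoles. During seed maturation the genes of both families are switched on by B3-domain factors such as ABI3, FUS3 and LEC2, which bind the RY motif, together with bZIP factors, which bind motifs with an ACGT core. Seedlings digest the stored proteins after germination, and the families are textbook markers of seed maturation, not of stems.

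The DNA before the annotated starts is shown first, because the 2S albumin genes share motifs there, and the choice of genes had not used them. The sequences are the 150 bases before the start of each RefSeq gene in TAIR10.1, read 5′ to 3′ on the strand of the gene, for the 5 2S albumin genes and for a pair of cruciferin genes with and without motifs. Capitals mark matches, on either strand, to the RY motif (CATGCA) and to ACGTG. The G-box (CACGTG) holds ACGTG on both strands, and it is a form of the E-box (CANNTG).
AT2S1, chr4:13607179-13607328, plus strand: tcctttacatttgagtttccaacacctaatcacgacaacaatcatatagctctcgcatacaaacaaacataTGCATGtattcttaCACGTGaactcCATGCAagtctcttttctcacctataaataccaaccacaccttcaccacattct
AT2S2, chr4:13609191-13609340, plus strand: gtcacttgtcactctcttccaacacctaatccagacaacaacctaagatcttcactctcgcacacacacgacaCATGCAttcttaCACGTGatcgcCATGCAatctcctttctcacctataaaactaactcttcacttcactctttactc
AT2S3, chr4:13611646-13611795, plus strand: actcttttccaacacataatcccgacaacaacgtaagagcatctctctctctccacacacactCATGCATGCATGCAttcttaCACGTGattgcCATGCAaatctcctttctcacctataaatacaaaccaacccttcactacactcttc
AT2S4, chr4:13613446-13613595, plus strand: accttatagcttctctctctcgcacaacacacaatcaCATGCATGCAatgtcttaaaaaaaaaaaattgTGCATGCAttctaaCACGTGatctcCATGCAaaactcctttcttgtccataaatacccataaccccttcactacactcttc
SESA5, chr5:22239188-22239337, minus strand: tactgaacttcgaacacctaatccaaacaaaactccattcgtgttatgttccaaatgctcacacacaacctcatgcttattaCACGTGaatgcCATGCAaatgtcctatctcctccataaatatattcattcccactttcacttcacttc
CRC, chr4:14087406-14087555, plus strand: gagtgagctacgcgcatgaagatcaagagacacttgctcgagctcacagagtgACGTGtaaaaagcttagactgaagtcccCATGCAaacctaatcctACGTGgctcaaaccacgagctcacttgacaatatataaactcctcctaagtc
CRB, chr1:985601-985750, plus strand: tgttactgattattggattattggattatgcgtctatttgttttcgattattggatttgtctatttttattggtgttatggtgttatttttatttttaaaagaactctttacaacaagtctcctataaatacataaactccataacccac

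All 5 2S albumin promoters held 1 G-box, which began 65 to 68 bases before the start, and an RY motif that began 11 bases further on. The arrangement G-box, 5 bases, RY motif was noticed in these sequences and then counted, so its presence in this family is a description. The 5 genes were taken as a family and are 60.9% to 89.7% identical in coding sequence, so their promoters are not independent cases. In windows from 250 bases before to 50 bases after the start, it was found in 9 of 27443 protein-coding genes (0.0328%). Besides the 5 2S albumin genes these were 2 listed genes and 2 genes outside the table. The listed genes were AT2G28490, a cupin (1047 WT reads, 5 *cep1* reads), and AT1G54860 (264 WT reads, 2 *cep1* reads), both with the arrangement on the other strand.

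The cruciferin promoters did not share this arrangement. None of the 4 had a G-box in the same window. Only 7.68% of all promoters had one, so none among 4 is near that share and is no trait of the cruciferins. *CRC* had 3 ACGTG matches and 1 RY motif, *CRA1* had 2 RY motifs, *CRD* had 1, and *CRB* had no match to any of the 4 motifs searched. The RY motif was thus found in 8 of the 9 windows. It was found in 9.72% of all promoters and in 17.2% of the 690 listed genes with a promoter in the reference. Of the other genes without a read in *cep1*, 47 had such a promoter, and 48.9% of these held the motif. ACGTG was found in 6 of the 9 windows, in 26.7% of all promoters and in 53.2% of these 47 other genes. The E-box was found in 8 of the 9 windows, in 61.7% of all promoters and in 83.0% of the 47. Both motifs were thus also frequent in other genes without a *cep1* read. The 9 windows belong to related genes within each family, so they are not 9 independent cases. A match is a string of letters, and whether a factor binds it was not measured.

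**Figure D1:**
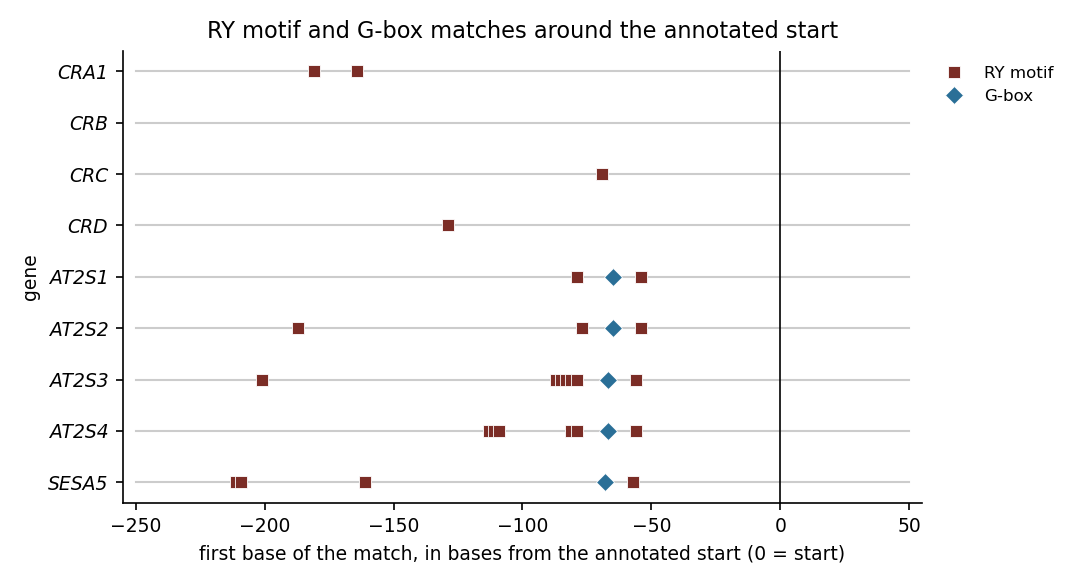
Matches to the RY motif (squares) and the G-box (diamonds) in the 9 promoters, by distance of the first base of the match from the annotated start, in bases. The 5 2S albumin genes share a G-box 65 to 68 bases before the start, the cruciferin genes have none, and *CRB* has neither motif.

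Both families were read in the WT stem library, and neither had a read in *cep1*. The *cep1* library held 0 reads for all 9 genes, whereas 61 of the 733 listed genes (8.32%) had no read there. In the WT the 9 genes together had 78936 reads, or 0.377% of the library (Wilson 95% interval 0.374% to 0.379%). The 0 of 22077141 reads in *cep1* allows a share of up to 1.36e-05% (3 reads). RNA of bulk stem tissue cannot tell fewer cells of a type from less RNA per cell.

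The 4 cruciferin genes had 36364 WT reads in sum, 0.173% of the library (0.172% to 0.175%), and 0 *cep1* reads. Against 3 reads for the family in *cep1*, and with the authors' scaling of the libraries, the sum was at least 10820.1-fold higher in the WT. The 5 2S albumin genes had 42572 WT reads, 0.203% of the library (0.201% to 0.205%), and again 0 in *cep1*. Their sum was at least 12667-fold higher in the WT. The bounds follow the WT reads, so they do not rank the genes by how far they fell.

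*CRC* was the most read gene of the group. It had 19882 reads in the WT (exact Poisson 95% interval 19607 to 20160) and 0 in *cep1*, so it was at least 5916-fold higher in the WT. *CRC* lies at chr4:14087556-14089796 and has 4 exons in RefSeq (coordinates are those of the table, which TAIR10.1 shares for every member but *CRA1*). Its level of 547 FPKM made up 53.4% of the summed FPKM of the cruciferin family. Only 4 of the 733 listed genes had more WT reads than *CRC*, and these had 572 to 31529 reads in *cep1*.

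*CRB* had 9431 WT reads (9242 to 9623) and 0 *cep1* reads, at least 2806-fold higher in the WT, with a level of 276 FPKM. *CRA1* (chr5:17756264-17758288), the cruciferin gene most like *CRB* in coding sequence (73.9% identical), had 5746 WT reads (5598 to 5897) and 0 *cep1* reads, at least 1709.7-fold higher. Its level of 162 FPKM was 1.70 times below that of *CRB* (counting interval of the ratio 1.64 to 1.76).

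*CRD* was the least abundant member. It had 1305 WT reads (1235 to 1378), a level of 41.0 FPKM, and 0 *cep1* reads, which makes it at least 388-fold higher in the WT. At the WT level, 1165 reads would have been counted in the *cep1* library, so even this member lay far above the limit of detection. *CRB* (chr1:985751-988146) and *CRD* (chr1:989198-991020) are neighbours on the same strand, 1051 bases apart, and differed 6.73-fold in WT level (6.35 to 7.13).

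*AT2S3* was the most abundant 2S albumin gene per length. It had 19627 reads in the WT (19353 to 19904), close to *CRC* in reads, and 0 in *cep1*, at least 5840.0-fold higher in the WT. Its transcript is shorter, and its level of 1219 FPKM, the fourth highest of all listed genes, was 44.5% of the summed FPKM of its family.

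*AT2S2* had 9109 WT reads (8923 to 9298) and 591 FPKM, and *AT2S4* had 8492 WT reads (8312 to 8675) and 589 FPKM. Neither had a read in *cep1*, and they were at least 2710.4-fold and 2527-fold higher in the WT. Their WT levels in deposited FPKM did not differ beyond counting error, with a ratio of 1.004 (0.975 to 1.03). *AT2S3* was 2.06 times above *AT2S2* (2.01 to 2.11).

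*AT2S1* had 3387 WT reads (3274 to 3503), a level of 229.8 FPKM and 0 *cep1* reads, at least 1008-fold higher in the WT. *SESA5* (chr5:22238358-22239187), the only one of the 5 2S albumin genes outside chromosome 4, had 1957 WT reads (1871 to 2046), a level of 112 FPKM and 0 *cep1* reads, at least 582-fold higher. It is also the most distant in coding sequence, 60.9% to 62.8% identical to the other 4, which are 80.6% to 89.7% identical among themselves. All 5 are single-exon genes, whereas each cruciferin gene has 4 exons.

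**Figure D2:**
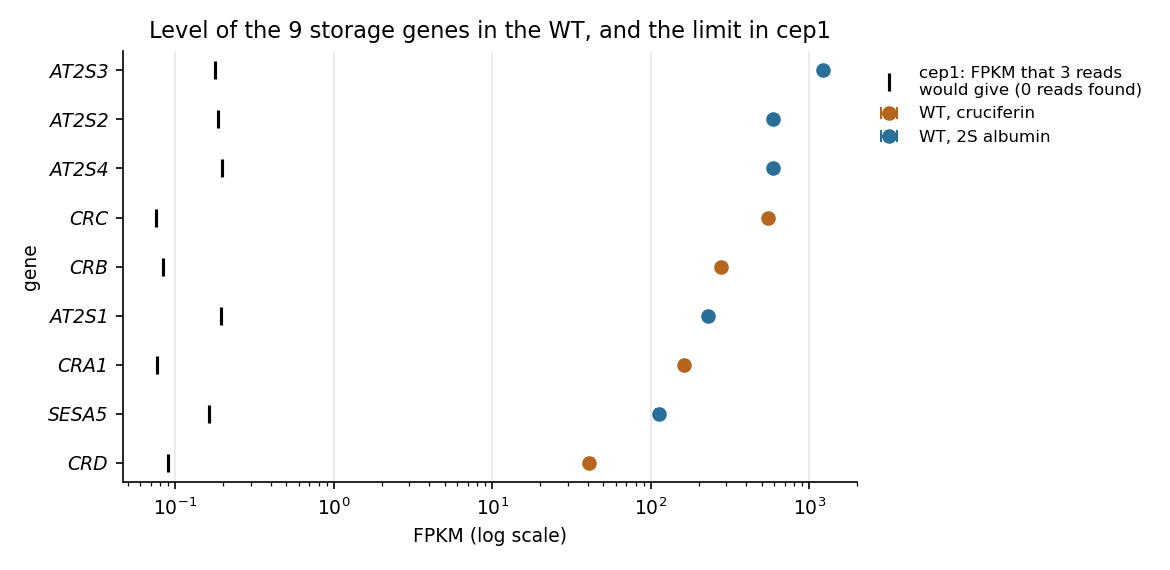
Deposited FPKM of the 9 genes in the WT library (circles, log axis, with exact Poisson 95% intervals mostly narrower than the symbols) and the FPKM that 3 reads would give in *cep1* (ticks), where no read was counted. WT levels run from 41.0 FPKM for *CRD* to 1219 FPKM for *AT2S3*.

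In order of WT level the genes were *AT2S3*, *AT2S2*, *AT2S4*, *CRC*, *CRB*, *AT2S1*, *CRA1*, *SESA5* and *CRD*, a 29.8-fold range. Of the 8 neighbouring pairs in this order, only *AT2S2* and *AT2S4* had overlapping counting intervals of deposited FPKM. *AT2S4* and *CRC*, the next closest pair, differed by 1.08 times (1.05 to 1.10). The families were interleaved, so neither was uniformly above the other. In sum the 2S albumin genes reached 2742 FPKM and the cruciferin genes 1026 FPKM, a ratio of 2.67 ± 0.0191 (counting SE). Counted as reads, not per length, the ratio was 1.17 (1.15 to 1.19). The listed lengths were 1520 to 1794 bases for the cruciferin genes and 688 to 830 bases for the 2S albumin genes.

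*AT2S1* to *AT2S4* form an array of consecutive genes on the plus strand of chromosome 4, at chr4:13607329-13614283, with gaps of 1309, 1720 and 1032 bases. The genes on either side of the array, AT4G27130 and AT4G27180, are not in the table. Along the array the WT level went from 229.8 to 591, 1219 and 589 FPKM, so the third gene was the highest, 5.30 times above the first (5.11 to 5.50). The 4 genes together had 40615 WT reads, 0.194% of the library. Of the other members, *CRC* alone had a neighbour that is no storage gene in the table. This was AT4G28530, a NAC transcription factor gene 692 bases downstream, with 656 WT reads and 32 *cep1* reads, a log2 ratio of -4.19 (-4.75 to -3.68).

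**Figure D3:**
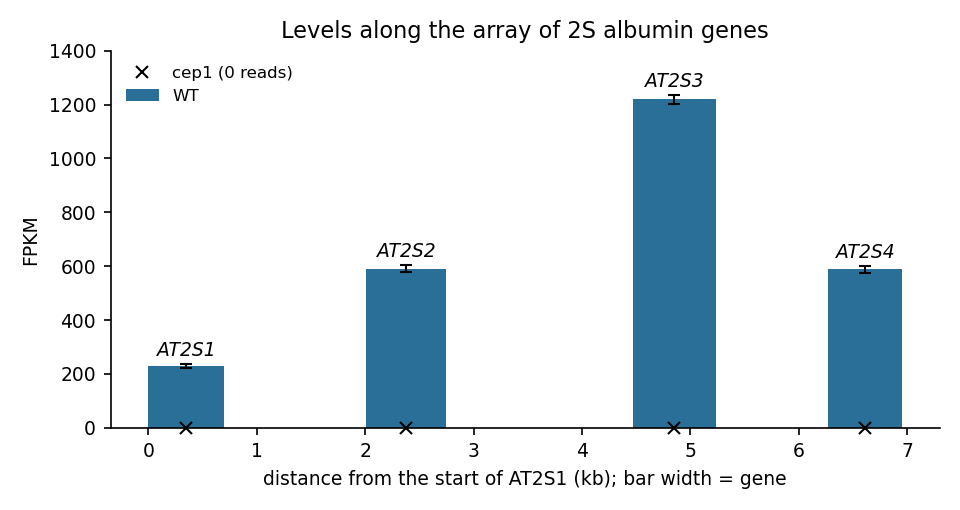
Deposited FPKM of the 4 consecutive 2S albumin genes against the distance from the start of *AT2S1* in kb. Bars show the WT (bar width is the gene, error bars are exact Poisson 95% intervals), and crosses mark *cep1*, with 0 reads. *AT2S3* is highest at 1219 FPKM, with 591 and 589 FPKM on either side.

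None of the 50-base stretches of the 9 transcripts had an exact match anywhere else in the genome. Stretches that span exon ends were compared with genomic sequence only. Matches with mismatches were not searched, so whether reads of similar members were mixed was not tested. The read length is not given in the sources used here.

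Compared with all listed genes, the storage genes combined a high WT level with a count of 0 in *cep1*. Their median was 8492 WT reads and 276 FPKM, beside 582.5 reads and 28.8 FPKM for the other 52 genes without a read in *cep1* and 1268 reads and 49.4 FPKM for all 733. They held 55.1% of the WT reads of the 61 genes without a *cep1* read. Among the 357 listed genes with more WT reads than *CRD*, 18 (5.04%) had no read in *cep1*, and 8 of these 18 were storage genes.

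**Figure D4:**
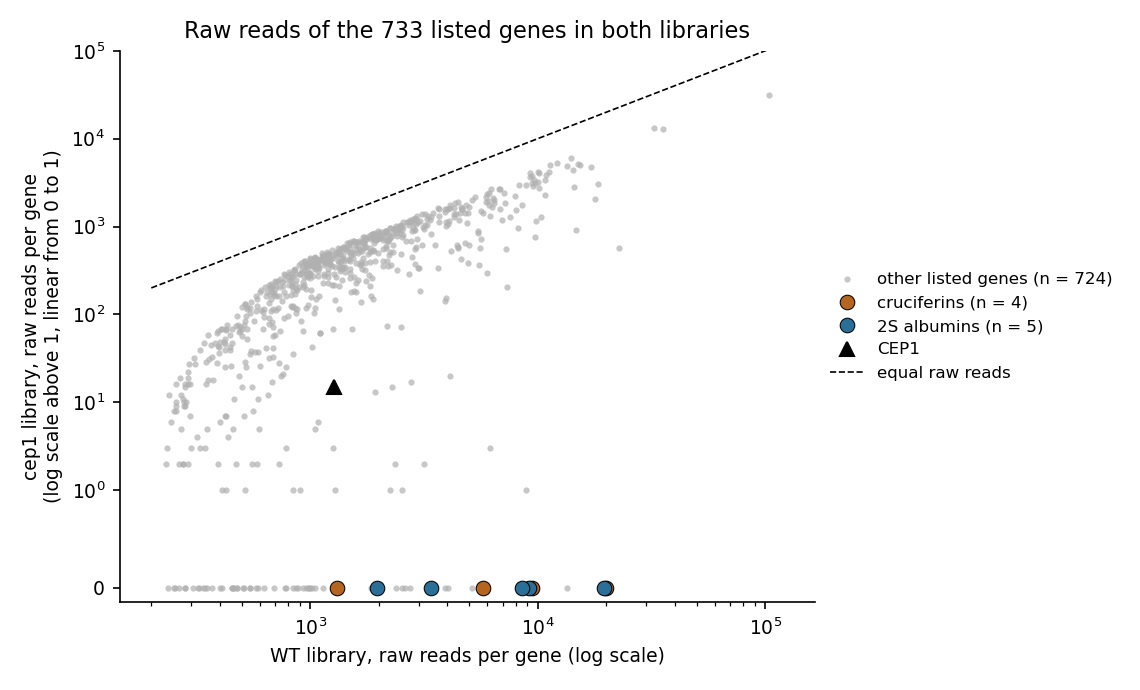
Raw reads per gene in the WT library (x, log axis) and the *cep1* library (y, log above 1 and linear from 0 to 1) for the 733 listed genes, with the cruciferin and 2S albumin genes and *CEP1* marked and a dashed line at equal reads. All 9 storage genes lie on 0 in *cep1*, between 1305 and 19882 WT reads.

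The 5 other genes most like the members in these libraries, by 0 reads in *cep1* and the highest WT FPKM, had 1842 to 13365 WT reads. AT5G38170, annotated in the same lipid-transfer and 2S albumin superfamily, had 3893 WT reads and 418 FPKM. *EPR1*, an extensin-like gene of the endosperm, had 13365 WT reads and 279 FPKM. The oleosin gene *OLEO1* had 5156 reads and 271 FPKM. The last of the 5 were AT1G62060, with 4045 reads and 264 FPKM, and *ATTI7*, listed as a defensin-like gene, with 1842 reads and 182 FPKM.

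The gene lists below are set beside the shares over all genes. The table held 690 of the 27443 protein-coding genes with a promoter in the reference. Of its 733 genes, 61 (8.32%) had no *cep1* read. The lists were chosen with earlier results of these data known, so their counts are descriptions. Other seed storage cupins were also in the table. Of 4 vicilin-like and related cupin genes, 3 were listed and 1 had no *cep1* read. *PAP85*, a vicilin-like globulin gene, had 1048 WT reads and 0 in *cep1*, at least 312-fold higher in the WT. AT4G36700 had 2229 WT reads and 1 *cep1* read, and AT2G28490 had 1047 and 5, a log2 ratio of -7.55 (-9.17 to -6.32). All 3 were below the level of *CRC*, at 28.1 to 57.7 FPKM in the WT. In the deposited annotation, nutrient reservoir activity was given to 14 listed genes, which were the 9 members, these 3 cupins and 2 germin-like genes. Of the 14, 10 had no *cep1* read, and these were the 9 members and *PAP85*. The members thus set most of this count. The germin-like genes AT5G39130 and AT5G39190 kept 149 and 761 reads in *cep1*, of 1883 and 1890 in the WT.

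Of 10 genes for the sorting and processing of storage proteins, 4 were in the table and 1 had no *cep1* read. Left out of these counts, because their symbols differed from the reference, were the listed genes AT1G62290 and AT4G04460. They had 1017 and 685 WT reads, and 43 and 114 reads in *cep1*. β-VPE (AT1G62710), the main vacuolar processing enzyme of seeds, had 1372 WT reads and 247 *cep1* reads, a log2 ratio of -2.31 (-2.51 to -2.11). It thus kept reads in *cep1* where its substrates had none. α-VPE had 269 WT reads and 5 *cep1* reads, with a log2 ratio of -5.59 (-7.22 to -4.35). δ-VPE, an enzyme of the seed coat, had 505 and 0, and *TIP3-1*, an aquaporin gene of the protein storage vacuole, had 291 and 2.

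Among 18 regulators of seed maturation, 5 were in the table and 2 had no *cep1* read, beside 8.32% of all listed genes without one. *ABI3*, whose product binds the RY motif, had 352 WT reads and 0 *cep1* reads, at least 105-fold higher in the WT, but its WT level was only 5.62 FPKM. *NFYB6*, which codes for the LEC1-like subunit of NF-Y, had 585 and 2 reads, and *MYB118*, an endosperm MYB gene, had 266 and 0. The bZIP gene *DPBF4*, also called *EEL*, had 545 and 103 reads, a log2 ratio of -2.24 (-2.56 to -1.93). *WRI1*, an activator of fatty acid synthesis, had 705 and 111, a log2 ratio of -2.50 (-2.81 to -2.21). *FUS3*, *LEC1*, *LEC2* and *ABI5* are not in the table.

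Of 7 genes for oil body proteins, which coat the lipid reserve, 5 were in the table and 4 had no *cep1* read. *OLEO1*, *OLEO2* and *OLEO3* had 5156, 2518 and 2755 WT reads and none in *cep1*. The oleosin gene AT3G01570 had 2275 WT reads and 15 in *cep1*. AT3G27660, an oleosin gene left out of the list's counts because its symbol differed from the reference, had 1669 and 137. Of 23 genes for late embryogenesis abundant proteins and desiccation, 2 were in the table. These were AT1G32560, with 780 WT reads and 162 in *cep1*, and *PER1*, with 343 and 0. Whether the other 21 differed between the libraries was not analysed here.

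Some markers of other seed tissues were also in the table, and those outside it were not analysed here. Of 13 seed coat genes, 4 were in the table, with 2856 WT reads and 99 *cep1* reads in sum, and *TT10* was at 0 in *cep1*, of 1370 WT reads. Of 9 endosperm genes, *EPR1* and *SUC5* were in the table, with 13710 WT reads and 3 *cep1* reads in sum, and *EPR1* was at 0 in *cep1*. None of 3 early embryo genes was in the table, and of 6 genes of the fruit valve and dehiscence zone only *ALC* was, with 976 WT reads and 129 in *cep1*. The part of these tissues in the storage gene result was not tested. None of the 8 xylem, 3 phloem and 3 stem epidermis markers is in the table, so the labelled tissue could not be checked against them here. The table lists only genes lower in *cep1*, and the study reports the xylem markers *CESA4*, *CESA7*, *CESA8* and *LAC17* as up-regulated in *cep1*.

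**Figure D5:**
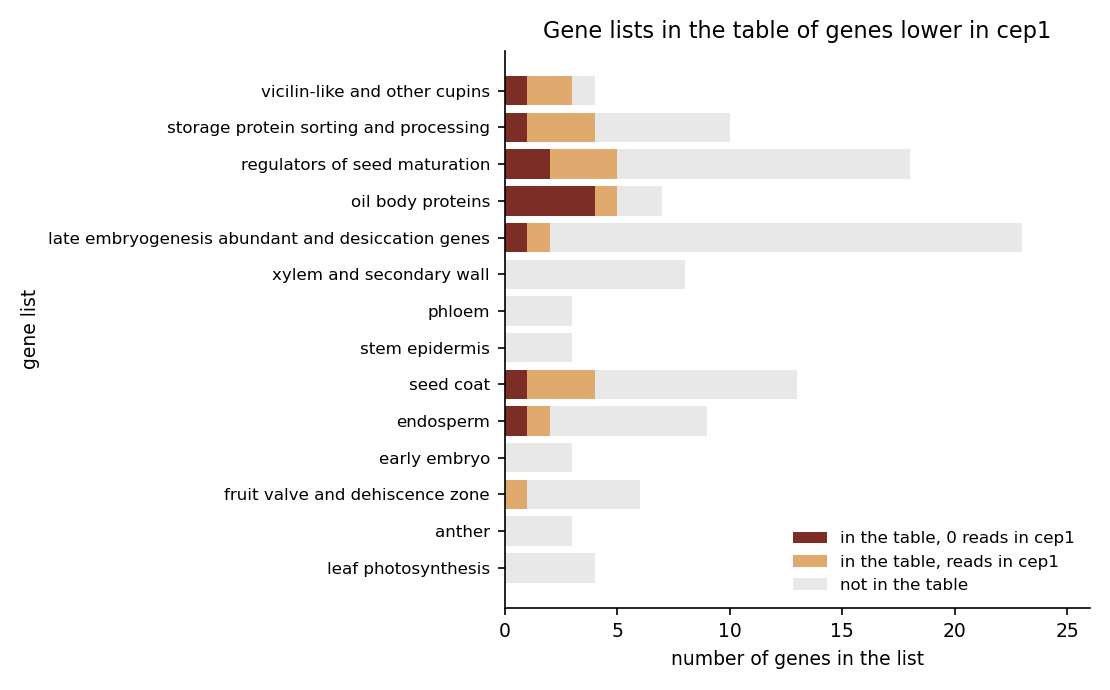
Number of genes of each list that are in the table without a *cep1* read (dark), in the table with *cep1* reads (light brown) and not in the table (grey). The oil body list has 4 of 7 genes without a *cep1* read, and no list for xylem, phloem, stem epidermis, early embryo, anther or leaf has a gene in the table. Of all 733 listed genes, 61 (8.32%) had no *cep1* read.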

How the data were processed

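Reads of *cep1* and WT stems (1 library each) were mapped by the authors with TopHat2 2.0.12 and Bowtie2 2.2.3 and counted with HTSeq 0.6.1, per the submitters' processing notes. The genome build is not given in the sources used here. The authors deposited raw counts per gene, FPKM (counts per gene length and per library size), and normalized counts, a signal equal to the raw counts divided by 20.3 (*cep1*) or 22.8 (WT), in which values under 1 are written as 0. Deposited FPKM equalled the count divided by listed length and total to within 0.01% for 7 of the 9 genes, and was 1.05 times higher for *CRA1* and 1.04 times higher for *CRC*; the cause was not tested. The deposited table also holds the authors' fold changes and p-values, which were not used.

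Library totals were derived for each gene with at least 1000 reads as the total that makes its FPKM fit its count and length, and the median was taken. Folds against 0 reads are lower bounds against 3 reads per library, with the authors' scaling. They leave out the counting error of the WT reads. The 3 reads are close to the upper 95% limit of a count of 0 with all of the error on that side. The exact Clopper-Pearson limits share the error between both sides, which is a stricter level, and also cover the WT count. They were lower, such as 315-fold for *CRD* and 4811-fold for *CRC*. Intervals are exact Poisson for counts, Clopper-Pearson for ratios and Wilson for shares, all at 95%. The Poisson and Clopper-Pearson intervals were tested on simulated counts, with folds far smaller than those of the members. The Wilson intervals were not tested in this way. No test was run, because each genotype has 1 library.

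The genes named were the 9 members, *CEP1*, the 5 other genes without a *cep1* read with the highest WT FPKM, and listed genes of gene lists. AT1G54860, AT3G27660, AT1G62290, AT4G04460, the germin-like genes and the neighbour of *CRC* were named after their values were seen. The members and lists were chosen with earlier results of these data known. Of 120 list entries, 6 whose symbol differed from the reference were dropped.

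Gene models and promoters came from RefSeq TAIR10.1. All 690 listed genes with a protein-coding locus tag there overlapped their reference gene, but only 103 had the same start and end. Of the 9 members 8 did, and the RefSeq start of *CRA1* lies upstream of the listed one. Motif shares rest on the RefSeq starts. Coding identity was taken from global alignments. Alternatives were other scalings, exact limits, pseudocounts, lengths, thresholds and windows. Python 3.11.15, numpy 2.4.6, pandas 2.3.3, scipy 1.17.1, biopython 1.88 and matplotlib 3.10.9 were used.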

Additional observations from a re-analysis of the deposited data

How the results depend on the processing

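The lower bound of the fold of the cruciferin sum was 12766-fold with scaling to the library totals and 8799-fold as the exact Clopper-Pearson limit, and that of the 2S albumin sum was 14945.5-fold and 10301-fold. Taken over the reads of the listed genes, the shares of WT reads were 1.97% (cruciferins) and 2.31% (2S albumins). The ratio of the 2S albumin to the cruciferin sum was 1.17 in reads, 2.74 per listed length and total, and 3.47 per coding length. Without *CRC* and *AT2S3* the ratio was 3.18, so the 2S albumins stayed higher under each alternative. The order of the 9 WT levels was the same with either length, listed or coding, but the gaps between neighbours were not. Per coding length *CRB* (328.9) and *AT2S1* (326.4) were nearly equal, and *CRA1* (193.2) was close to *SESA5* (187.5). *AT2S2* (847) then lay further above *AT2S4* (809). Which neighbours differ beyond counting error is thus stated for deposited FPKM only. All 9 genes had at most 3 *cep1* reads, as had 89 listed genes (12.1%). FPKM ratios depended on the pseudocount, with log2 ratios from -5.39 (*CRD*) to -10.25 (*AT2S3*) at 1 and from -8.68 to -13.57 at 0.1. Of 86 alternatives for single genes, lists and motifs, 55 moved the value. With 0 *cep1* reads no alternative could reverse a fold. No paired analysis was possible because each genotype has 1 library. Without replicates, the spread between plants is unknown, and whether seed tissue entered either stem sample was not tested.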
